A study of Mus musculus with 8 samples.

Results

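The genes described here encode the nuclear subunits of the mitochondrial respiratory chain and a few of their assembly factors, measured in mouse liver with and without thioredoxin reductase 1 in hepatocytes. Members were all genes whose symbol begins with Nduf, Uqcr, Cox4, Cox5, Cox6, Cox7, Cox8 or Atp5, together with Sdha to Sdhd, that at least 1 probe set read under a single symbol. This gave 179 probe sets for 90 of the 18193 genes named on the array: 44 genes of complex I, 4 of complex II, 8 of complex III, 17 of complex IV and 17 of complex V. Of 96 protein-coding genes whose RefSeq symbols match, 6 had no such probe set and were not analysed here. The choice and the assignment to complexes used names alone and no measured value. Every Nduf gene is thus counted under complex I, Ndufa4 and Ndufa4l2 included, whatever complex its protein sits in.

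Total liver RNA came from 8 young adult male mice, singly housed for 10 days on a light cycle of 14 h light and 10 h dark and all harvested in the afternoon, with 1 Affymetrix array per animal. The 4 control mice (animals 70, 71, 80 and 82) were txnrd1 cond/+ albCre0: they carried 1 conditional and 1 wild-type allele of txnrd1 and no Cre transgene. The 4 experimental mice (animals 69, 72, 73 and 81) were txnrd1 cond/- albCre1, with 1 conditional allele, 1 null allele and 1 copy of a transgene that expresses Cre recombinase in hepatocytes from the albumin promoter. Their hepatocytes become txnrd1-/-, while other liver cells keep the conditional allele beside a null one. The groups are called txnrd1cond/+ and txnrd1-/- below. Presence of Cre and loss of Txnrd1 differ together between them and cannot be told apart.

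Each value is the authors' linear ratio of a probe set to about its own median over the arrays, put on the log2 scale here, so that 0 is the level of a typical liver in the series. These ratios compare one mRNA between animals and do not tell which of several mRNAs is the most abundant. For the same reason the presence of liver markers could not be checked as a level. Between the genotypes, 0 of the 8 measured hepatocyte markers passed an unadjusted p of 0.05 in limma and their median log2 fold change was -0.09. In whole-liver RNA, fewer cells of a type and less RNA per cell cannot be told apart. Txnrd1 itself was read by 3 probe sets with log2 fold changes of 1.11, -0.71 and -0.41. Whether any of them lies in the exons that Cre removes was not known here, and they are no check of the labels.

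The respiratory chain sits in the inner mitochondrial membrane. Complex I takes electrons from NADH and complex II takes them from succinate, complex III passes them from ubiquinol to cytochrome c, complex IV hands them to oxygen, and complex V uses the resulting proton gradient to make ATP. Complexes I, III, IV and V combine subunits encoded in mitochondrial DNA with nuclear ones, whereas complex II is wholly nuclear. Many nuclear subunits are small accessory proteins that surround a conserved core. Hepatocytes are rich in mitochondria, and Txnrd1 itself works in the cytosol and nucleus, where it keeps thioredoxin reduced.

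Animals 80 (txnrd1cond/+) and 81 (txnrd1-/-), and to a lesser degree animal 82 (txnrd1cond/+), stood apart from the other 5 livers in these genes. Many mRNAs of small subunits read low there, down to a log2 ratio of -1.62 for Atp5k, whereas the largest genotype difference of a member was 0.36. Of these 3 livers, 2 are controls, so the counts and medians over members, and several members at the ends of the order, are also given without some or all of them. In animal 82 the low median was not particular to these genes. It was -0.14 over members, -0.15 over proteasome subunits and -0.23 over tricarboxylic acid cycle genes. Cytosolic ribosomal protein genes had -0.10 there, and all genes 0.00.

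No respiratory chain gene passed the test between txnrd1-/- and txnrd1cond/+ livers after adjustment. In limma with Benjamini-Hochberg adjustment over all 18193 genes, 0 of 90 members reached an adjusted p of 0.05 with a 1.5-fold difference, against 15 genes in all (0.0824%). At the study's thresholds, read as an unadjusted p of 0.05 and 1.5-fold, 0 of 90 members passed, against 0.654% of all genes. With the unadjusted p alone, 1 of 90 members passed and it was lower in txnrd1-/- livers. Among all genes, 2.32% passed that p and 0.605% passed it as lower. The 8 livers did not overlap by genotype in 1 member, against 1.71% of all genes. A test on each of the 179 probe sets alone gave 0 past adjustment and 1 at the unadjusted p. Testing each gene alone on its log2 ratios, with equal or unequal variances, gave 0 of 90 past adjustment and 1 at the unadjusted p, which was Ndufaf7 in place of Atp5g1.

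The differences were small and their errors bounded them. Log2 fold changes of txnrd1-/- over txnrd1cond/+ ran from -0.27 to 0.36, and 41 of 90 members lay within 0.1 of 0. Standard errors in limma ranged from 0.09 to 0.45 with a median of 0.16. For 58 of 90 members the 95% interval of the difference stayed inside 1.5-fold in both directions, against 82.5% of all genes. For the remaining members, 4 livers per genotype could not exclude a change of that size. Where a member had several probe sets (51 genes), their fold changes differed by at most 0.50 on the log2 scale.

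**Figure D1:**
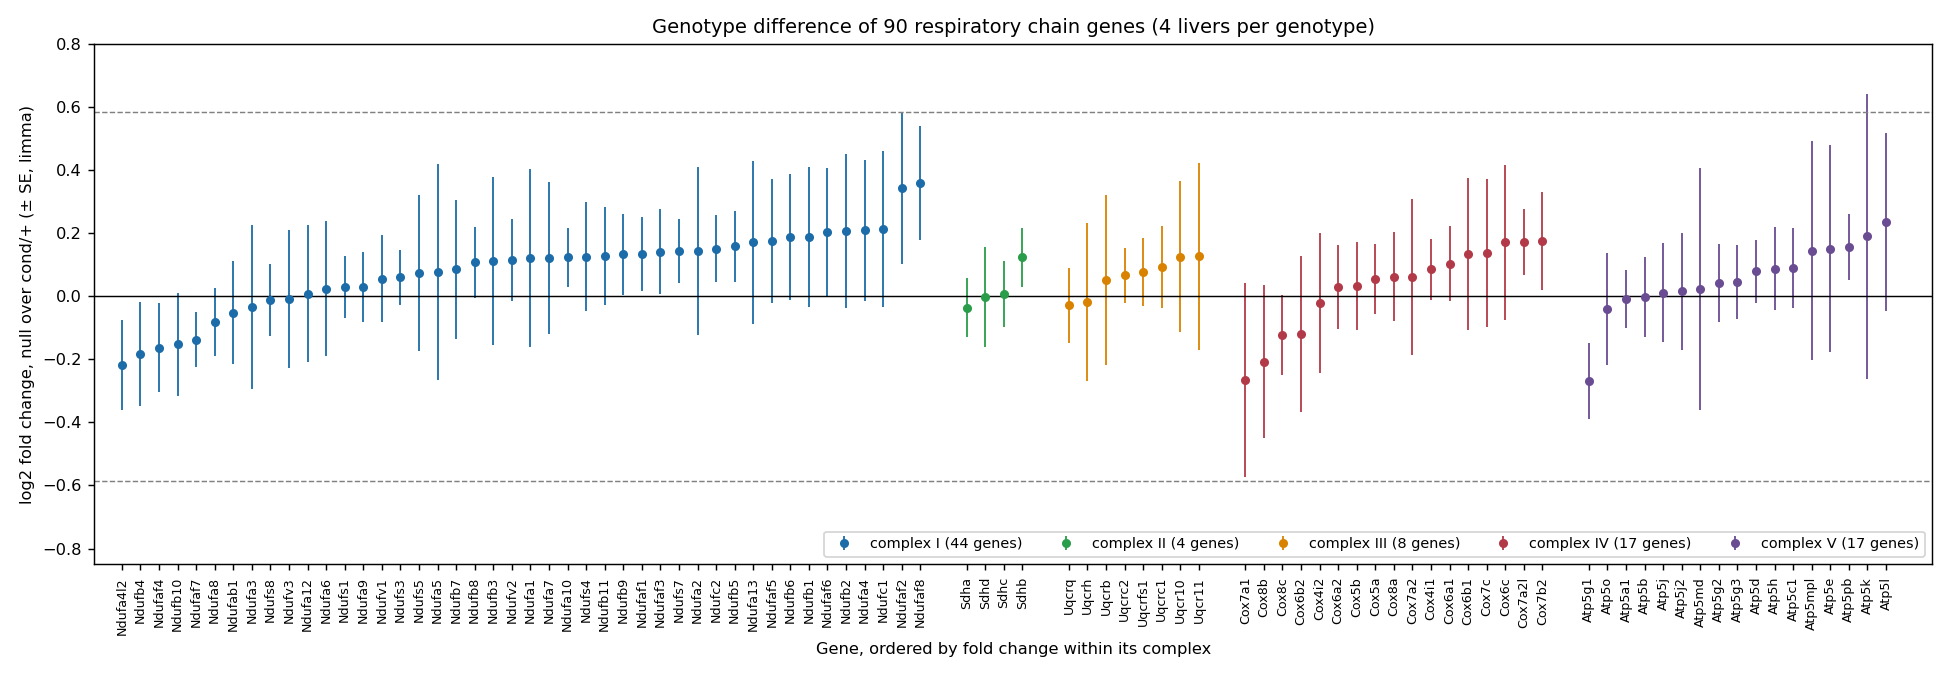
Log2 fold change of txnrd1-/- over txnrd1cond/+ livers on the y axis for each of the 90 genes on the x axis, grouped by complex, with points at the limma estimate, bars of 1 SE (4 livers per genotype) and dashed lines at 1.5-fold. All estimates lie between -0.27 and 0.36, and the widest bars belong to genes such as Atp5k.

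By complex, the median log2 fold change was 0.12 for complex I, 0.00 for complex II, 0.07 for complex III, 0.06 for complex IV and 0.05 for complex V, beside 0.00 over all genes. The median over members within each liver gives the spread behind these values. For complex I this per-liver median was -0.11 ± 0.22 (SD over 4 livers) in controls and -0.01 ± 0.11 (SD over 4 livers) in txnrd1-/- mice. It was -0.12 ± 0.18 and -0.09 ± 0.22 for complex III, -0.04 ± 0.15 and 0.00 ± 0.08 for complex IV, and -0.10 ± 0.19 and -0.05 ± 0.11 for complex V, each over 4 livers. Complex II was the steadiest, at 0.00 ± 0.02 and 0.02 ± 0.04. Without animal 80 the median log2 fold changes were 0.00 for complex I, 0.03 for complex II, -0.06 for complex III, -0.05 for complex IV and 0.01 for complex V. Without animals 80, 81 and 82 they were -0.01, 0.00, 0.01, -0.07 and -0.02 in the same order. In each of the 5 complexes the per-liver medians of the 2 genotypes overlapped.

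Of the 90 members, 67 had a log2 fold change above 0, against 51.1% of all genes, and this count depended on which livers were used. Without animal 80 it was 43 of 90, and the median over members went from 0.08 to -0.01. With the range of the animal number (69 to 73 against 80 to 82) as a covariate it was 47 of 90, with a median of 0.00. Without animals 80 and 81 it was 64 of 90, and without animals 80, 81 and 82 it was 40 of 90. Within the ranges, the median difference over members was -0.01 between the 3 txnrd1-/- and 2 txnrd1cond/+ livers numbered 69 to 73, and 0.04 between animal 81 and the mean of animals 80 and 82.

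Complex II, succinate dehydrogenase, is both part of the chain and an enzyme of the tricarboxylic acid cycle. Its flavoprotein subunit Sdha had log2 ratios of 0.04, 0.00, 0.14 and -0.03 in txnrd1cond/+ and 0.01, 0.06, 0.05 and -0.11 in txnrd1-/- livers. Here and below the order is animals 70, 71, 80 and 82, then animals 69, 72, 73 and 81. This mean over 4 probe sets lay within a narrow band in all 8 livers, and the genotypes overlapped. The log2 fold change of Sdha was -0.04 ± 0.09 (SE), while its probe sets alone ran from -0.18 to 0.19. Sdhb, the iron-sulfur subunit, gave 0.02, -0.07, -0.17 and -0.01 in txnrd1cond/+ and 0.12, 0.10, 0.08 and -0.04 in txnrd1-/- livers, and its 3 highest livers were txnrd1-/-, but animal 81 lay among the controls. Its log2 fold change was 0.12 ± 0.09 (SE). The membrane anchors Sdhc and Sdhd had log2 fold changes of 0.01 ± 0.10 (SE) and 0.00 ± 0.16 (SE). In all 4 genes the 95% interval stayed inside 1.5-fold. Sdhd was highest in animal 71 (0.42) and animal 72 (0.40), one of each genotype.

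In complex I the lowest fold changes belonged to Ndufa4l2, Ndufb4 and Ndufaf4 and the highest to Ndufc1, Ndufaf2 and Ndufaf8. Ndufaf8, an assembly factor that partners the hydroxylase Ndufaf5, had log2 ratios of 0.11, -0.17, -0.66 and -0.36 in txnrd1cond/+ and 0.31, 0.03, 0.26 and -0.23 in txnrd1-/- livers. It was lower in animals 80 and 82 than in any txnrd1-/- liver, and the other livers overlapped. The log2 fold change of 0.36 ± 0.18 (SE) had an unadjusted p of 0.0754 and was 0.23 without animal 80. Ndufaf2, an assembly factor that joins late in complex I building, gave 0.10, -0.10, -0.92 and -0.48 in txnrd1cond/+ and 0.07, 0.28, 0.15 and -0.53 in txnrd1-/- livers, with 2 control livers and 1 txnrd1-/- liver low and a log2 fold change of 0.34 ± 0.24 (SE) that was 0.15 without animal 80. Ndufc1, a membrane arm subunit, had a log2 fold change of 0.21 ± 0.25 (SE), or 0.06 without animal 80.

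Ndufaf7, a methyltransferase that acts in complex I assembly, was the member whose genotypes did not overlap. Its log2 ratios were 0.02, 0.10, 0.00 and 0.07 in txnrd1cond/+ and -0.01, -0.17, -0.10 and -0.09 in txnrd1-/- livers. Every txnrd1-/- liver lay below every control, but the highest of the first and the lowest of the second were nearly equal, and the log2 fold change of -0.14 ± 0.09 (SE) had an unadjusted p of 0.15 in limma. Tested alone on its own variance, it had an unadjusted p of 0.013 with equal and 0.015 with unequal variances. Ndufa4l2, a paralogue of Ndufa4 known from hypoxic cells, had -0.22 ± 0.14 (SE), the accessory subunit Ndufb4 -0.18 ± 0.16 (SE) and the assembly factor Ndufaf4 -0.16 ± 0.14 (SE), all log2 fold changes whose groups overlapped. The 6 core subunits measured, Ndufs1, Ndufs3, Ndufs7, Ndufs8, Ndufv1 and Ndufv2, all of the arm that carries electrons from NADH, lay between -0.01 and 0.14.

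Complex III had log2 fold changes of -0.03 ± 0.12 (SE) for Uqcrq, -0.02 ± 0.25 (SE) for the hinge protein Uqcrh and 0.05 ± 0.27 (SE) for Uqcrb at its low end. At its high end were the core protein Uqcrc1 at 0.09 ± 0.13 (SE) and the small subunits Uqcr10 at 0.13 ± 0.24 (SE) and Uqcr11 at 0.13 ± 0.30 (SE). Without animal 80, Uqcr10 stood at -0.09 and Uqcr11 at -0.15. The errors of the small subunits were wider than those of the core proteins. Uqcrc1, Uqcrc2 and the Rieske iron-sulfur protein Uqcrfs1 each had a 95% interval inside 1.5-fold.

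In complex V, Atp5g1 was the member that passed the unadjusted p of 0.05. It is 1 of 3 genes that encode the same mature subunit c, which builds the rotating ring in the membrane. Its log2 ratios were 0.13, 0.30, -0.09 and 0.07 in txnrd1cond/+ and -0.12, -0.03, -0.13 and -0.39 in txnrd1-/- livers. Animal 81 was the lowest and animal 71 the highest, the remaining txnrd1-/- livers lay close together, and animal 80 lay among them, so the groups overlapped. The log2 fold change was -0.27 ± 0.12 (SE), with an unadjusted p of 0.0495 and an adjusted p of 1.0 in limma. Its 2 probe sets differed, with log2 fold changes of -0.43 (unadjusted p of 0.006) and -0.11 (unadjusted p of 0.63), so the call rests on the first. The log2 fold change of Atp5g1 kept its sign in all alternatives, from -0.33 to -0.11, while its unadjusted p ranged from 0.0091 to 0.64. That p was above 0.05 when any of animals 69, 70, 71, 73, 81 or 82 was left out, and below it without animal 72 or 80. Its 2 sister genes, Atp5g2 and Atp5g3, had log2 fold changes of 0.04 ± 0.12 (SE) and 0.05 ± 0.12 (SE). The F1 subunits alpha and beta, Atp5a1 and Atp5b, which hold the catalytic sites, stood at -0.01 ± 0.09 (SE) and 0.00 ± 0.13 (SE). Atp5o, the stalk subunit that confers oligomycin sensitivity, had -0.04 ± 0.18 (SE) and the stator subunit Atp5pb 0.16 ± 0.10 (SE), while Atp5k and Atp5l, small subunits of the membrane part, had 0.19 ± 0.45 (SE) and 0.24 ± 0.28 (SE). Without animal 80 these last 2 were -0.18 and 0.01.

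Several complex IV subunits exist as a widely expressed form and a form found mainly in muscle, testis or other tissues. The 7 tissue-restricted forms, Cox4i2, Cox6a2, Cox6b2, Cox7a1, Cox7b2, Cox8b and Cox8c, had a median log2 fold change of -0.12 with 2 above 0, and the 5 measured partners, Cox4i1, Cox6a1, Cox6b1, Cox7a2 and Cox8a, a median of 0.09 with 5 above 0. Without animals 80, 81 and 82 the medians were -0.19 with 3 of 7 above 0 and 0.00 with 2 of 5 above 0. None of the 12 passed the unadjusted p of 0.05. Cox7a1, a heart and muscle form, gave 0.63, 0.20, -0.15 and -0.43 in txnrd1cond/+ and 0.31, 0.13, -0.22 and -1.04 in txnrd1-/- livers, lowest in animal 81 and highest in animal 70, with a log2 fold change of -0.27 ± 0.31 (SE). Cox7a2, its partner, gave 0.08, 0.11, -0.80 and -0.38 in txnrd1cond/+ and 0.02, 0.03, 0.01 and -0.80 in txnrd1-/- livers, with a log2 fold change of 0.06 ± 0.25 (SE). It was low in animals 80 and 81 alike, one of each genotype. Cox8b, another muscle form, was highest in animals 71 (0.73) and 72 (0.71), one of each genotype, and had a log2 fold change of -0.21 ± 0.24 (SE). Over the 8 skeletal muscle markers the median difference between genotypes was -0.02 on the log2 scale, and 0 passed the unadjusted p. By liver, the median of these markers was highest in animals 72 (0.14) and 71 (0.11), also the livers with the highest Cox8b. The part of muscle tissue in these readings was not tested. Of the other members at the ends of the complex IV order, Cox8c, a testis form, had -0.12 ± 0.13 (SE), Cox6c 0.17 ± 0.25 (SE), the supercomplex factor Cox7a2l 0.17 ± 0.10 (SE) and Cox7b2 0.18 ± 0.16 (SE).

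The largest movement in the respiratory chain genes lay between animals. Of the 90 members, 24 (26.7%) had a log2 ratio below -0.5 in both animal 80 and animal 81, against 0.434% of all genes, and these 24 made up 30.4% of the 79 genes on the array that met this description. Both animals, the limit of -0.5 and the members named in this and the following paragraphs were picked after the values had been seen, so the counts describe these arrays and carry no test. Under quantile normalization the count was 22, with each array centred on its median 24, with the most variable probe set of each gene 27, and without probe sets marked as shared 18 of 85. The lowest of the 8 livers was animal 80 in 41 of 90 members, against 15.9% of all genes, and animal 80, 81 or 82 in 66 of 90, against 45.5% of all genes. Animal 81 was the lowest in 15 of 90 members, against 1929 of all 18193 genes. For animal 82 it was 10 of 90, a smaller share than the 3465 of 18193 over all genes. The median over the 24 genes was -0.85 in animal 80, -0.80 in animal 81 and -0.39 in animal 82, and between 0.01 and 0.10 in the other 5 livers. Just inside the limit, Atp5j2 read -0.60 and -0.58 in animals 80 and 81 and Ndufv3 read -0.67 and -0.54, while just outside it Ndufa6 read -0.81 and -0.48 and Ndufb2 read -1.02 and -0.49.

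**Figure D2:**
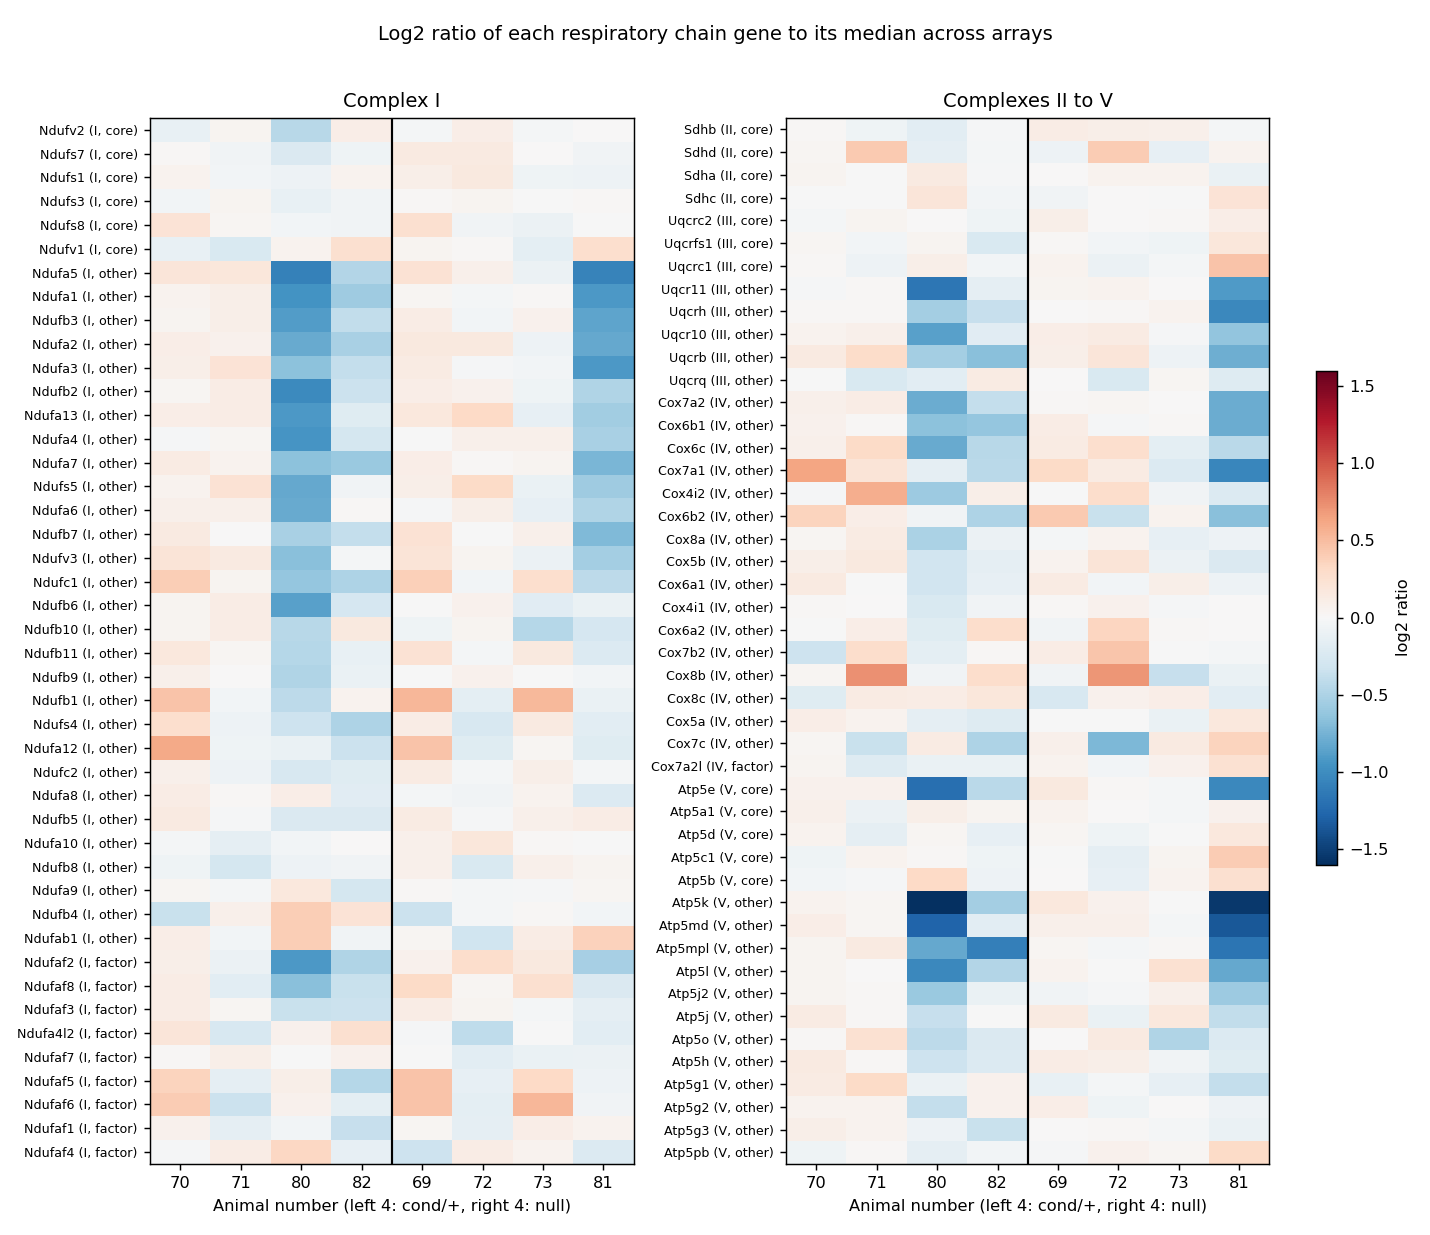
Log2 ratio of each gene (rows, with its complex and whether it is a core subunit, another subunit or a factor) in each liver (columns, 4 txnrd1cond/+ left of the line and 4 txnrd1-/- right of it), coloured from -1.6 (blue) to 1.6 (red). Blue cells concentrate in the columns of animals 80 and 81 and, more weakly, 82, in the rows of subunits other than the core.

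Complex V held the most extreme genes. Atp5k, subunit e of the membrane part that helps ATP synthase form dimers, had log2 ratios of 0.06, 0.03, -1.62 and -0.55 in txnrd1cond/+ and 0.17, 0.06, -0.01 and -1.54 in txnrd1-/- livers. The 5 livers numbered 69 to 73 stayed between -0.01 and 0.17, while animals 80 and 81 had ratios of 0.326 and 0.343 on the linear scale. Atp5md, a small dimer-row subunit, gave 0.11, 0.03, -1.28 and -0.17 in txnrd1cond/+ and 0.09, 0.08, -0.04 and -1.35 in txnrd1-/- livers, and here animal 82 was much closer to the other livers. In Atp5mpl, a small membrane proteolipid, animal 82 was instead as low as animals 80 and 81, with 0.04, 0.14, -0.82 and -1.10 in txnrd1cond/+ and 0.03, -0.03, 0.02 and -1.17 in txnrd1-/- livers. Atp5e, the epsilon subunit and the smallest of the F1 head, gave 0.07, 0.06, -1.20 and -0.43 in txnrd1cond/+ and 0.16, 0.02, -0.03 and -1.03 in txnrd1-/- livers. It was the 1 core subunit among the 24. Atp5l, subunit g, gave 0.04, 0.00, -1.03 and -0.47 in txnrd1cond/+ and 0.06, 0.00, 0.25 and -0.81 in txnrd1-/- livers.

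The other F1 subunits did not read low in these livers. Atp5a1 gave 0.09, -0.09, 0.09 and 0.05 in txnrd1cond/+ and 0.06, 0.00, -0.03 and 0.07 in txnrd1-/- livers, with animals 80 and 81 at the same level as animal 70. Atp5b gave -0.04, -0.01, 0.32 and -0.09 in txnrd1cond/+ and 0.00, -0.14, 0.05 and 0.25 in txnrd1-/- livers, and animals 80 and 81 were its 2 highest livers. Gamma and delta, Atp5c1 and Atp5d, stood at 0.02 and 0.03 in animal 80 and at 0.41 and 0.17 in animal 81.

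Complex III split in the same way. Uqcr11, a small subunit at the edge of the complex, gave -0.02, 0.01, -1.15 and -0.15 in txnrd1cond/+ and 0.04, 0.06, 0.00 and -0.90 in txnrd1-/- livers, so that its 2 low livers were separated from the other 6 by a wide gap. Uqcrh, the hinge protein that helps cytochrome c dock, gave 0.02, 0.01, -0.54 and -0.37 in txnrd1cond/+ and 0.01, 0.02, 0.06 and -1.04 in txnrd1-/- livers, lower in animal 81 than in animal 80. Uqcr10 and Uqcrb were also below -0.5 in both animals, and Uqcrq was the 1 of 5 small subunits that was not, at -0.17 and -0.21. The large core proteins ran flat or the other way: Uqcrc1 gave 0.02, -0.08, 0.09 and -0.04 in txnrd1cond/+ and 0.05, -0.10, -0.04 and 0.45 in txnrd1-/- livers, highest in animal 81, and Uqcrc2 gave -0.03, 0.05, 0.00 and -0.07 in txnrd1cond/+ and 0.09, 0.00, 0.02 and 0.11 in txnrd1-/- livers.

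Among genes assigned to complex I by symbol, 11 of the 29 accessory subunits, Ndufa4 among them, were below -0.5 in both animals. So were 1 of 9 factors (Ndufaf2) and 0 of 6 core subunits. Ndufa5, a subunit of the matrix arm, gave 0.19, 0.18, -1.08 and -0.46 in txnrd1cond/+ and 0.23, 0.08, -0.09 and -1.07 in txnrd1-/- livers. Ndufa1, a small membrane subunit, gave 0.06, 0.09, -0.96 and -0.57 in txnrd1cond/+ and 0.03, -0.03, 0.02 and -0.91 in txnrd1-/- livers, and animal 82 lay between the 2 lowest livers and the rest. Among core subunits, Ndufs1 gave 0.06, -0.05, -0.08 and 0.06 in txnrd1cond/+ and 0.10, 0.16, -0.07 and -0.08 in txnrd1-/- livers, and Ndufv1, which binds NADH, gave -0.12, -0.24, 0.05 and 0.25 in txnrd1cond/+ and 0.05, 0.01, -0.16 and 0.27 in txnrd1-/- livers with animals 81 and 82 its 2 highest livers. Ndufab1, the acyl carrier protein that also serves fatty acid synthesis outside the complex, had its highest values in animals 80 (0.40) and 81 (0.37). Its 5 probe sets disagreed there, from -0.20 to 0.92 in animal 80 and from 0.00 to 0.68 in animal 81.

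Of the 17 genes assigned to complex IV by symbol, 2 contributed, Cox6b1 and Cox7a2. Cox6b1, which binds on the side of the intermembrane space, gave 0.06, 0.02, -0.66 and -0.62 in txnrd1cond/+ and 0.12, -0.02, 0.02 and -0.79 in txnrd1-/- livers. Cox4i1, the largest nuclear subunit of the complex, gave 0.02, 0.01, -0.25 and -0.05 in txnrd1cond/+ and 0.02, 0.07, -0.02 and 0.00 in txnrd1-/- livers and moved little, while Cox7c, another small subunit, was above 0 in both animals (0.13 and 0.35) and lowest in animal 72 (-0.72). Complex II contributed 0 of 4.

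Taking conserved core subunits of complex I, all of complex II, the core and Rieske proteins of complex III and the F1 subunits of complex V as the core class, 1 of 18 core genes was below -0.5 in both animals, against 22 of the 62 other subunits and 1 of 10 assembly or supercomplex factors and paralogues. The median within-genotype SD over livers was 0.12 log2 units for the core class, 0.36 for the other subunits and 0.21 for the factors, beside 0.20 over all genes. Of the 24 genes, 4 had a 95% interval of the genotype difference inside 1.5-fold, against 54 of the other 66. Because the 24 were picked for a low reading in 1 liver of each genotype, wide intervals follow from that choice and are no separate result.

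**Figure D3:**
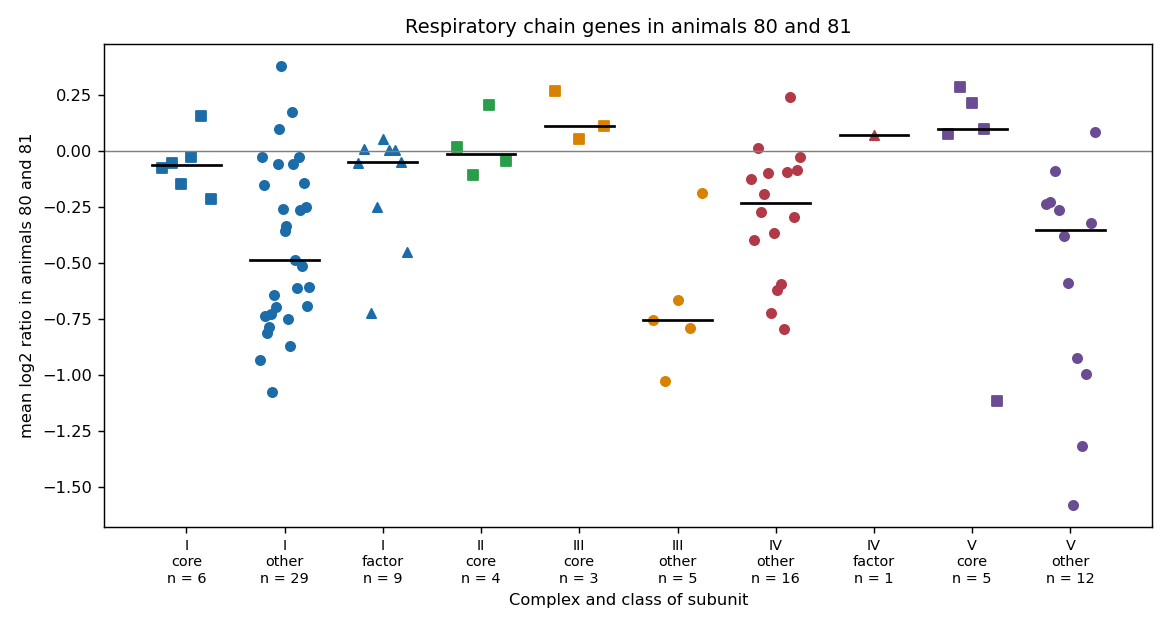
Mean log2 ratio of animals 80 and 81 on the y axis for each gene (points), by complex and class on the x axis (core subunit, other subunit, or assembly and other factor), with the class median as a bar. Medians of the core classes lie between -0.06 and 0.11, while the other subunits of complexes I and III have medians of -0.49 and -0.75.

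Of the 24 genes, 13 were read by 1 probe set. In the other 11, which were picked on the mean of their probe sets, 23 of 29 probe sets were below -0.5 in both animals. Other multi-subunit machines shared the low reading to different degrees. Of 49 cytosolic ribosomal protein genes, 6 (12.2%) met the description, against 0.434% of all genes. Their median in animal 80 was -0.35, beside -0.28 for the 90 respiratory chain genes. In animal 81 it was -0.02, beside -0.17. Of 76 mitochondrial ribosomal protein genes 2 (2.63%) met the description, and of 40 proteasome subunit genes 0. Medians of these last 2 groups were -0.06 and 0.02 in animal 80 and -0.07 and 0.03 in animal 81. In animal 82 they were -0.07 and -0.15, beside -0.14 for the 90 respiratory chain genes. The median over all genes was -0.01 in animal 80 and 0.00 in animals 81 and 82. These comparison groups were also picked after values had been seen and were taken by the start of the gene symbol.

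**Figure D4:**
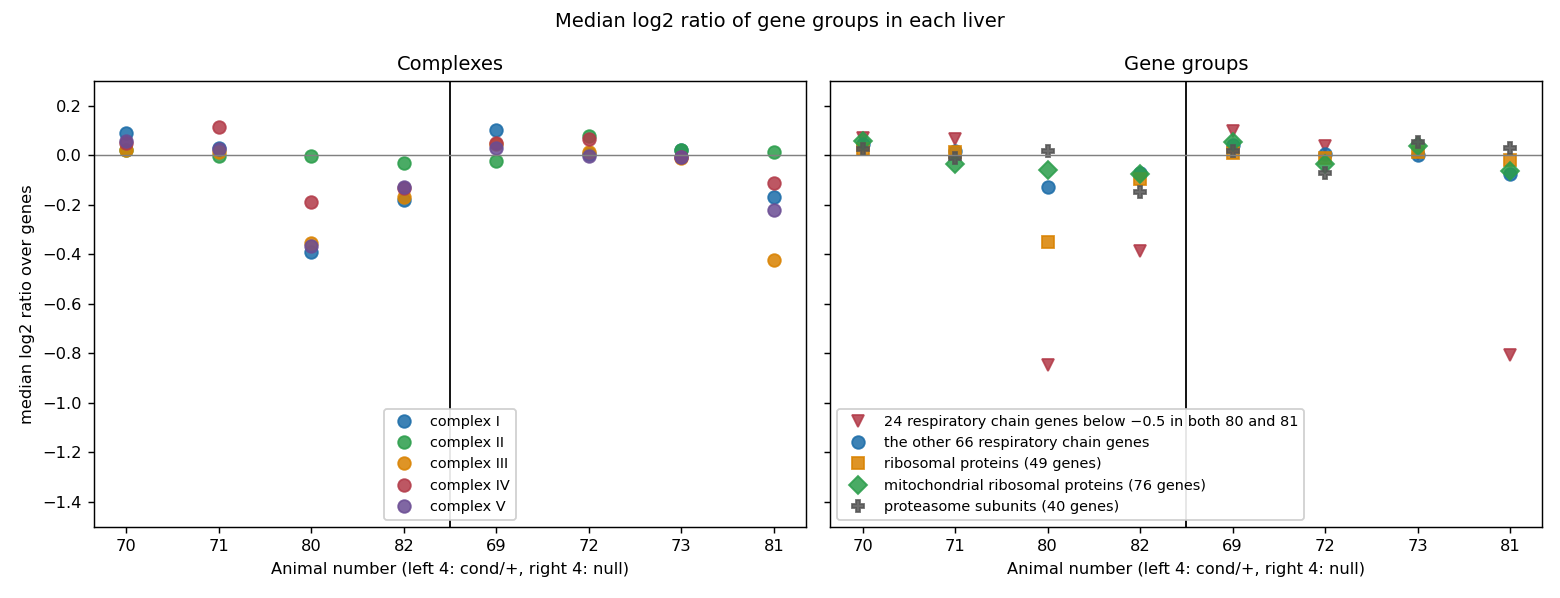
Median log2 ratio over genes on the y axis in each liver on the x axis (4 txnrd1cond/+ left of the line, 4 txnrd1-/- right of it), for the 5 complexes (left panel) and for the 24 low genes, the other 66 and 3 comparison groups (right panel). The 24 genes drop to -0.85 and -0.80 in animals 80 and 81, while complex II stays between -0.03 and 0.08 in all 8 livers.

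Array controls and cell type markers were read in the same livers. Control probe sets are also ratios to about their own median over the arrays. Their values compare livers and do not tell whether the 3' or the 5' signal of an array was higher. On this relative scale the log2 ratio of the 3' to the 5' control of Actb was -0.17 in animal 80 and -0.23 in animal 81. It was between -0.16 and 0.09 in the other 6. For Gapdh it was -0.04 and -0.10, and between -0.01 and 0.13 in the other 6. The median of the poly-A spike controls was highest in animal 81, at 1.06, and was 0.02 in animal 80. The lowest was that of animal 72, at -0.58. The median of the hybridization controls was 0.36 in animal 80 and -0.49 in animal 81. Animals 80 and 81 thus had the 2 lowest ratios of 3' to 5' control for both genes and differed in the spike and hybridization controls, and the part of RNA quality or labelling in the low readings was not tested. Hepatocyte markers had a median of 0.13 in animal 80 and -0.04 in animal 81. For endothelial cells the medians were 0.38 and 0.00, for Kupffer cells and macrophages -0.04 and 0.14, for stellate cells 0.06 and -0.38, for neutrophils 0.10 and -0.34 and for red cells -0.14 and -0.03. Cholangiocyte markers gave 0.04 and -0.10, lymphocyte markers 0.01 and 0.04, skeletal muscle markers -0.17 and -0.06 and brown fat markers -0.04 and -0.04. Between the genotypes 0 markers of these 10 lists passed the unadjusted p of 0.05, and the list medians of the log2 fold change ran from -0.23 to 0.24. Low readings in animals 80 to 82 also go with the range of the animal number, and the labels do not say what that range stands for.

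Upstream sequence is shown for 3 of the genes with low readings and 3 that were not low in animals 80 and 81. Whether promoter elements have a part in the low readings was not tested. Many respiratory chain genes are known targets of nuclear respiratory factor 1 and of GA-binding protein. Both differ from Nrf2 (Nfe2l2), the factor of the antioxidant response. Windows are the 250 bases before the annotated start in RefSeq on GRCm38.p6, 5′ to 3′ on the strand of the gene, and capitals mark any match to the motifs searched. Atp5k lies at chr5:108434400-108434649 (minus strand), Atp5e at chr2:174464102-174464351 (minus strand) and Uqcr11 at chr10:80406822-80407071 (minus strand). Of the other 3, Sdha lies at chr13:74350241-74350490 (minus strand), Sdhb at chr4:140961021-140961270 (plus strand) and Atp5b at chr10:128083057-128083306 (plus strand).
Atp5k: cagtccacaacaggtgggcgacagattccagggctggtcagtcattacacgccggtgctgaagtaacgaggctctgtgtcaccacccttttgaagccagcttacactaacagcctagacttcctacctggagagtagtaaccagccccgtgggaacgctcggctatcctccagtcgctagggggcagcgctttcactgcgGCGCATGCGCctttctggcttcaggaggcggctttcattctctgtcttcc
Atp5e: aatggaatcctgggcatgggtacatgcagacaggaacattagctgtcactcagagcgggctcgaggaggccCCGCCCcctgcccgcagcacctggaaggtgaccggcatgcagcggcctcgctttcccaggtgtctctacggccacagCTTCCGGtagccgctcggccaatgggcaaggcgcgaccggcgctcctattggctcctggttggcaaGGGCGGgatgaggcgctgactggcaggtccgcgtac
Uqcr11: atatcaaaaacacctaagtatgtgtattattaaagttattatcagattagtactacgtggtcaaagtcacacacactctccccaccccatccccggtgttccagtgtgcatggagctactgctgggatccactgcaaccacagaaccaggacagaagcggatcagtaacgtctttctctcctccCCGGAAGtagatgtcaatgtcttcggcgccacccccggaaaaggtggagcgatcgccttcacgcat
Sdha: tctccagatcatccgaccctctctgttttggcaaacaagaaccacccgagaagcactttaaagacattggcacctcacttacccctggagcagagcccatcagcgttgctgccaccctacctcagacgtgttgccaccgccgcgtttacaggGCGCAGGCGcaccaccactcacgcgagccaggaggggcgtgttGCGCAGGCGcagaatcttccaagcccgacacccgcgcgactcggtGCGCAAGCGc
Sdhb: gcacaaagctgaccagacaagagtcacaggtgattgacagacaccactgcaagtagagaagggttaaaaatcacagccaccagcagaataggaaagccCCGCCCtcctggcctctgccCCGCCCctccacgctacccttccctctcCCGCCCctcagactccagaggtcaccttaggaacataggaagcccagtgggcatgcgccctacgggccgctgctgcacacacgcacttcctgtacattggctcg
Atp5b: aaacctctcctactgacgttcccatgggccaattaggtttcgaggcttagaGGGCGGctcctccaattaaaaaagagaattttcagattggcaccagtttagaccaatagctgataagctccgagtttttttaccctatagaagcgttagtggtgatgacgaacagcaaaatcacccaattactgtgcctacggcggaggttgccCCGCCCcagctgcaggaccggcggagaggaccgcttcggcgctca

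The motifs searched on both strands were GCGCANGCG for nuclear respiratory factor 1, CCGGAAG for GA-binding protein and other ETS factors, AAGATGGCG for YY1, GGGCGG for Sp1 and TGACNNNGC for the antioxidant response element. The Atp5k window matched the first on both strands, from 50 and 49 bases before the start, and the Sdha window held 3 matches to it, at 98, 55 and 10 bases before the start. Uqcr11 had 1 ETS match, at 66 bases, and Atp5e had 1, at 102 bases, with 2 Sp1 matches at 179 and 36 bases. Sdhb and Atp5b had only Sp1 matches, 3 and 2 of them. The windows of Cox6b1 and Uqcrc1 were also searched and are not shown. Cox6b1 had 1 ETS match, at 28 bases, and Uqcrc1 had no match. Matches are letters in a window, not measured binding.

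Windows were found for 74 of the 90 members, 79 in all. The nuclear respiratory factor 1 motif was in 17.7% of these, in 5.16% of all 32851 windows and in 7.08% of the windows of protein-coding genes. The ETS motif was in 17.7%, against 6.91% and 8.98%, the Sp1 motif in 39.2%, against 32.7% and 42.6%, the YY1 motif in 1.27%, against 0.606% and 0.72%, and the antioxidant response element in 11.4%, against 10.2% and 10.4%. In 76 windows of ribosomal protein genes the ETS motif was in 26.3% and the nuclear respiratory factor 1 motif in 5.26%. Among the windows of genes low in animals 80 and 81, 5 of 23 held the nuclear respiratory factor 1 motif and 6 of 23 the ETS motif, against 9 and 8 of the 56 windows of the other members. The antioxidant response element was in 4 of 23 against 5 of 56, the Sp1 motif in 9 against 22 and the YY1 motif in 0 against 1. These counts are too few to read a difference from.

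Genes that work beside the chain were read from lists, whose counts stand against the 2.32% of all genes at an unadjusted p of 0.05. Of 16 measured electron carriers and ubiquinone genes, 1 passed the unadjusted p of 0.05: Coq7, the hydroxylase of ubiquinone synthesis, at a log2 fold change of 0.47 ± 0.12 (SE). Its adjusted p in limma was 0.91. Of 35 assembly factors outside the symbols above, 1 passed, the complex IV copper factor Coa6 at 0.41 ± 0.18 (SE). Of 16 tricarboxylic acid cycle genes and of 12 carriers, porins and uncoupling proteins, 0 passed. Median log2 fold changes of these 4 lists were 0.05, 0.10, 0.01 and -0.01 in that order.

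Regulators of mitochondrial genes gave 1 of 15, Tfb1m, which modifies the mitochondrial ribosomal RNA, at 0.48 ± 0.16 (SE). The coactivator Ppargc1a stood at 0.30 ± 0.41 (SE), with control animal 82 at a log2 ratio of -1.65 and the other livers between -0.19 and 0.51. Nrf1 stood at -0.09 ± 0.12 (SE) and Gabpa at 0.23 ± 0.16 (SE). The mitochondrial DNA packaging factor Tfam had 0.10 ± 0.17 (SE) and the receptor Esrra 0.02 ± 0.15 (SE). None of the named regulators other than Tfb1m passed the unadjusted p. Of 8 genes of mitochondrial thiol and superoxide defence 1 passed, glutathione reductase (Gsr) at 0.63 ± 0.18 (SE). At 1.55-fold and an unadjusted p in limma of 0.0064, Gsr met the study's fold and p thresholds here, the fold only narrowly. The paper, with its own software and signal filter, reports that Gsr mRNA was not induced. Here Gsr stood at -0.39, -0.22, -0.14 and -0.49 in txnrd1cond/+ and 0.09, 0.08, 0.22 and 0.89 in txnrd1-/- livers, highest in animal 81. No gene of these lists passed the adjusted threshold.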

How the data were processed

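RNA of 8 mouse livers was read on 1 Affymetrix array each. The authors deposited linear ratios. Their methods name GeneSpring, and the submitters' processing notes name RMA with no version. In the deposited ratios each array has a median near 1 and each probe set a median near 1 over the arrays, so signal levels and background are not kept and no signal filter could be applied. All 45037 probe sets other than 64 array controls were used, and 5 values are empty. Gene symbols came from the platform's annotation: 34945 probe sets have 1 symbol, 932 several and 9160 none. Left out were 10 probe sets on which a matching symbol stands beside others. A gene is the mean of its probe sets on the log2 scale.

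Genotypes were compared over 18193 genes with limma 3.58.1 in R 4.3.3 (lmFit and eBayes, 2-sided, Benjamini-Hochberg). Members, lists and tests were chosen with earlier results of these data known. Named are all complex II genes, the 3 highest and 3 lowest fold changes in each other complex, members at an unadjusted p of 0.05 or without overlap, tissue-restricted forms with their partners, regulators, and list genes at that p. Others were named after their values were seen. Leaving out animals 80 and 81, or 80 to 82, was added after seeing the data. Precision is limited by the 4 arrays per genotype, and array data have no read depth. Code was tested on simulated data. Promoter sequences are RefSeq's on GRCm38.p6. Plots used Python 3.11.15 and matplotlib 3.10.9.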

Additional observations from a re-analysis of the deposited data

Results flagged for a closer look

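Among 86 groups of 4 livers (37 named genes and 6 medians, 2 genotypes each), 8 had 1 liver that stood far from the other 3 by Dixon's criterion at 95%, where chance gives about 1 in 20. Animal 81 was that liver in 7 of them and animal 80 in 1, always as the lowest. Among txnrd1-/- livers, animal 81 stood alone in the complex III median at a log2 ratio of -0.42 and in the complex V median at -0.22. It did so in Atp5k at -1.54, Cox6b1 at -0.79, Cox7a2 at -0.80, Uqcr11 at -0.90 and Uqcrh at -1.04. Among txnrd1cond/+ livers, animal 80 stood alone in Uqcr11 at -1.15. Most of these genes share the low reading described for animals 80 and 81, so the 8 are not independent of each other.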

How the results depend on the processing

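Over 20 alternatives, 0 of 90 members passed the adjusted threshold with a 1.5-fold difference and 0 passed the study's thresholds. At an unadjusted p of 0.05 the count was 1, and it was 0 with the most variable probe set of each gene, 0 without probe sets marked as shared, 2 with a covariate for the animal number range, 0 without animals 80 and 81, and between 0 and 2 leaving out 1 animal at a time. The complex II median, 0.00, was 0.0939 with the most variable probe set and -0.0323 with array weights, and between -0.0281 and 0.0546 leaving out 1 animal. The complex IV median, 0.06, was -0.0704 without animals 80, 81 and 82 and -0.05 without animal 80. The medians of complexes I, III and V moved by less than the SD between livers, but without animal 80 complex I went from 0.12 to 0.00 and complex III from 0.07 to -0.06, and without animals 80, 81 and 82 complex V went from 0.05 to -0.02. The cause was not tested. Of 628 values of the 37 named members under an alternative, 79 had the other sign, most often without animals 80, 81 and 82 (13 of 37) and without animal 80 (9 of 37). No paired analysis was possible because the groups share no replicate numbers. Signal over background is not kept in the ratios, so a low or absent mRNA cannot be told from a measured one.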
